A study of Homo sapiens with 6 samples.

Results

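The genes described here encode the subunits of the 3 nuclear RNA polymerases of human cells, the factors that bring RNA polymerase I (Pol I) and RNA polymerase III (Pol III) to their promoters, and the mitochondrial RNA polymerase. Members were taken by symbol from the count files, as every POLR1, POLR2 or POLR3 symbol followed by 1 letter together with POLR3GL, POLRMT, UBTF, RRN3, TAF1A, TAF1B, TAF1C, TAF1D, ZNRD1, CD3EAP, TWISTNB, BRF1, BRF2 and BDP1. This gave 41 of the 23368 gene symbols listed, and all 41 passed the filter on low counts that left 13209 genes for testing. RNA was sequenced from NB4 cells, an established human acute promyelocytic leukemia (APL) line that carries the PML/RARA fusion, without treatment or after 24 h with 10 µM maltonis, a synthetic compound derived from maltol. Each group had 3 libraries of ribosomal RNA-depleted total RNA, which the study describes as biological replicates of the same line, and the labels name no vehicle for the not treated (n.t.) cells. In RNA of whole cultures, a change in fewer cells and a smaller change in every cell cannot be told apart.

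Pol I transcribes the large ribosomal RNA precursor in the nucleolus, Pol II transcribes messenger RNAs and many noncoding RNAs, and Pol III transcribes transfer RNAs, 5S ribosomal RNA and other short RNAs. The enzymes are built on a common plan. Each has its own pair of large catalytic subunits, some small subunits are part of all 3 enzymes, and others belong to both Pol I and Pol III. Pol I needs the upstream binding factor UBTF, the selectivity factor SL1 with its TAF1 subunits, and RRN3, which makes the enzyme competent to initiate. Pol III is placed on its genes by TFIIIB, which contains TBP, BDP1 and either BRF1 or BRF2. Output of Pol I and Pol III rises and falls with cell growth, and MYC is a known activator of both.

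Libraries held between 18492154 and 38205483 counts, so that 3 counts, the floor used here, equal 0.0785 to 0.162 CPM (counts scaled to a common library size), a limit for counting error only. Summed CPM of 6 promyelocytic markers (MPO, PRTN3, CTSG, AZU1, CD33 and KIT) was 13690 to 16180 in n.t. and 8557 to 9005 in maltonis-treated cells, with none at 0. Most of that sum was MPO, whose lowest and highest libraries held 12890 and 15530 CPM in n.t. and 7298 and 7553 CPM in maltonis-treated cells, and CD33 also lay lower after maltonis. The other 4 lay higher in every maltonis library, such as CTSG with 103 to 113 CPM before and 539 to 576 CPM after. For 6 markers of other blood lineages the sum was 0.241 to 0.320 and 0.310 to 0.388 CPM, with 3 and 4 of them at 0 and at most 26 counts of any other in a group. File names carry a code of unstated meaning that puts replicate 1 of each group in one set (A) and replicates 2 and 3 in another (B). MYC fell from 661 ± 57.8 to 185 ± 6.64 CPM (SD, n = 3). CPM rests on library sizes corrected by edgeR’s TMM method, fold changes are log2 values with their standard error (SE), and a gene is called lower or higher at a false discovery rate (FDR) under 0.01 in edgeR’s quasi-likelihood test.

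After maltonis, 20 of the 41 members were lower and 8 were higher, while 13 were not called. Over all genes tested, 32.1% were lower and 31.9% higher, against 48.8% and 19.5% of the members. The median log2 fold change was −0.24 for the members and 0.01 for all genes tested. In either direction 64% of all genes were called. With a fold change beyond 2.50 added to the threshold, 4 of the 41 members were lower, a share close to the 10.4% of all genes. At that threshold 0 members were higher, against 9.96% of all genes. Of 6 subunits found only in Pol I, 5 were lower and none higher. Of 10 subunits found only in Pol III, 5 were lower and 2 higher. Of 8 Pol II genes, 2 were lower and 3 higher. The libraries of the groups did not overlap for 30 members (73.2% of them) and for 76.6% of all genes tested. All 28 called members had the same sign within code A as within code B, as had 8451 of the 8452 called genes. These are counts of members and not a test of one enzyme against another.

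**Figure D1:**
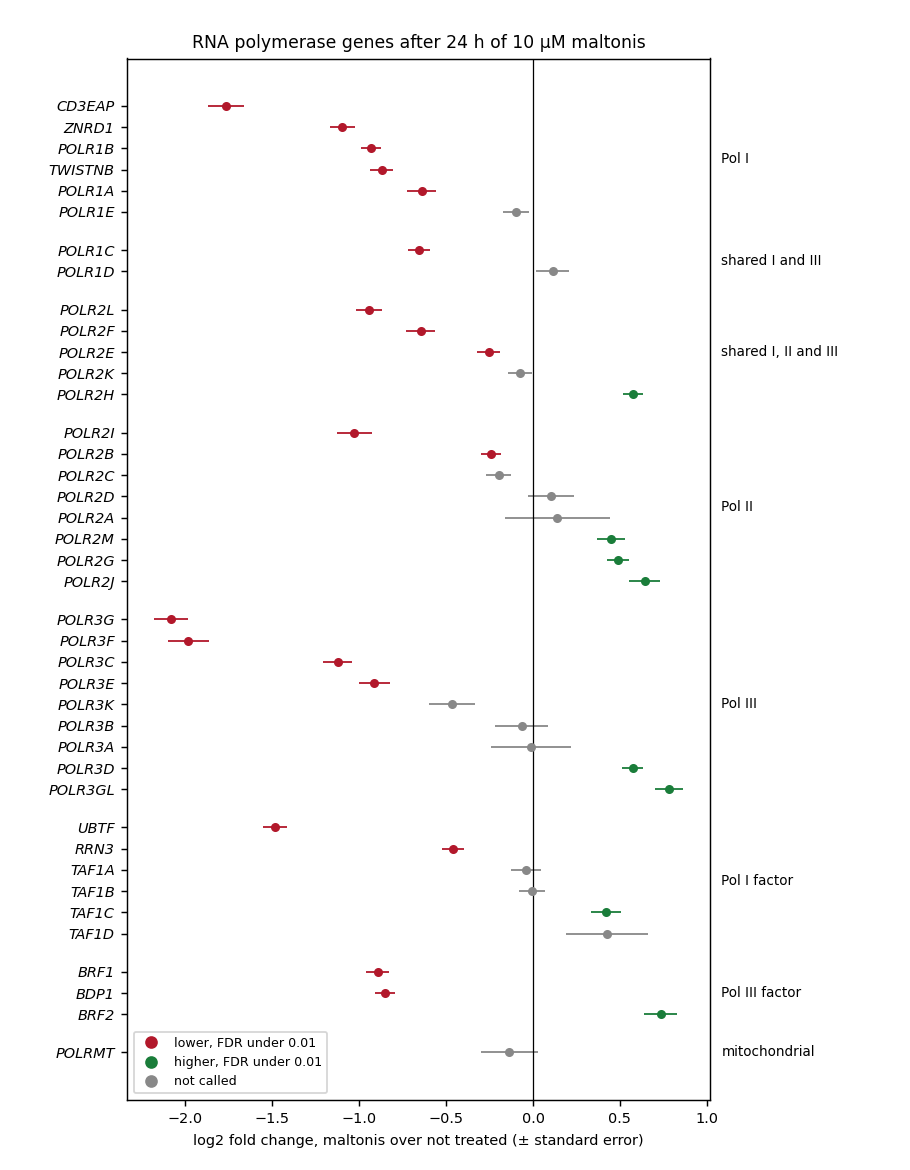
Log2 fold change of 40 members, maltonis over not treated, as points with bars of ± 1 standard error, grouped by enzyme and ordered within each group; red marks 19 lower and green 8 higher members at an FDR under 0.01, and gray the other 13. The lowest value is that of POLR3G (−2.08) and the highest that of POLR3GL (0.78).

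Among Pol I subunits, CD3EAP, ZNRD1, POLR1B, TWISTNB and POLR1A fell, and POLR1E was not called. POLR1A, the largest catalytic subunit, stood at 188, 183 and 204 CPM in n.t. replicates 1, 2 and 3 and at 138, 119 and 113 CPM after maltonis. POLR1B, the next largest subunit, which completes the active site with POLR1A, went from 230.5, 217 and 214 CPM to 112, 116 and 119 CPM. In both genes every maltonis library lay under every n.t. library, and the fall was 1.56-fold for POLR1A and 1.91-fold for POLR1B. ZNRD1, now named POLR1H and needed for RNA cleavage by the enzyme, went from 75.1, 75.8 and 71.9 CPM to 32.4, 37.0 and 34.7 CPM, a log2 fold change of −1.10 (SE 0.0704). TWISTNB, now POLR1F, a subunit of the stalk through which RRN3 is bound, went from 159.5, 151 and 152 CPM to 78.8, 84.7 and 89.5 CPM, with a log2 fold change of −0.87 (SE 0.0647).

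The pair of subunits CD3EAP (now POLR1G) and POLR1E, which form a dimer on the surface of Pol I, had different values. CD3EAP had 12.6, 13.7 and 11.8 CPM in n.t. and 3.72, 3.79 and 3.73 CPM in maltonis-treated cells. Its log2 fold change of −1.76 (SE 0.104, adjusted p = 1.02e-06 by edgeR’s quasi-likelihood test) is the lowest of the Pol I subunits. POLR1E had 58.8, 53.6 and 50.2 CPM without treatment and 49.5, 52.4 and 49.98 CPM with it, overlapping ranges with a log2 fold change of −0.10 (SE 0.0746, adjusted p = 0.268 by the same test). The value of CD3EAP is uncertain: 43.5% of its exon bases lie opposite to exons of ERCC1, a DNA repair gene on the other strand that fell by 2.78 on the log2 scale, and whether counting used the strand is not given in the sources used here.

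UBTF showed the strongest fall among the factors that assist Pol I. It binds along ribosomal DNA and keeps it open for transcription. UBTF stood at 259, 254 and 246 CPM in n.t. cells and at 98.8, 85.5 and 87.0 CPM after maltonis, a log2 fold change of −1.48 (SE 0.0700, adjusted p = 3.05e-07 by edgeR’s quasi-likelihood test). The groups are far apart compared with their spread, 253 ± 6.82 against 90.45 ± 7.30 CPM (SD, n = 3). RRN3, the growth-regulated initiation factor, fell less, from 127, 119 and 112 CPM to 86.8, 88.1 and 85.0 CPM, a log2 fold change of −0.46 (SE 0.0643). RRN3 has pseudogene copies in the table, of which RRN3P2 and RRN3P3 rose and RRN3P1 was not called. Each of them had a mean of 1.07 to 5.73 CPM in either group, against 119 and 86.6 CPM for RRN3.

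No TAF1 subunit of SL1 was called lower. TAF1C rose from 54.2, 54.5 and 57.5 CPM to 83.6, 70.6 and 68.2 CPM, a log2 fold change of 0.42 (SE 0.0855), and without n.t. replicate 2 this call was lost (adjusted p = 0.0112 by edgeR’s quasi-likelihood test). TAF1A and TAF1B had log2 fold changes of −0.04 and −0.01 with overlapping libraries. TAF1D had 34.5, 62.8 and 70.8 CPM in n.t. and 61.1, 81.9 and 83.5 CPM in maltonis libraries. Replicate 1 was the lowest library in both groups of TAF1D, and the log2 difference was 0.83 within code A and 0.31 within code B. It was not called (log2 fold change 0.43, SE 0.237, adjusted p = 0.134 by edgeR’s quasi-likelihood test), but was called higher with the code as a term (log2 fold change 0.46, adjusted p = 0.000927 by the same test). TAF1D also hosts small nucleolar RNAs, of which 7 overlap its annotated exons.

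Of the genes that Pol I and Pol III have in common, POLR1C fell and POLR1D was not called. Their proteins form the dimer on which both enzymes are assembled. POLR1C went from 91.0, 87.1 and 82.2 CPM to 54.5, 56.2 and 54.4 CPM, a 1.58-fold fall with no overlap. POLR1D had 92.0, 116 and 116 CPM in n.t. and 111, 121 and 118 CPM in maltonis-treated cells, where only n.t. replicate 1 lay apart from the rest (log2 fold change 0.11, SE 0.0942).

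The 5 small subunits encoded by POLR2E, POLR2F, POLR2H, POLR2K and POLR2L serve all 3 enzymes, and they moved in both directions. POLR2L fell from 76.4, 86.8 and 81.2 CPM to 44.6, 39.8 and 42.9 CPM (log2 fold change −0.94, SE 0.0745), and POLR2F from 68.2, 83.9 and 75.6 CPM to 47.3, 49.3 and 49.0 CPM (log2 fold change −0.65, SE 0.0825). POLR2H rose instead, from 67.3, 67.1 and 64.6 CPM to 94.7, 101 and 99.8 CPM, a log2 fold change of 0.57 (SE 0.0578). These genes had no overlap between groups. POLR2E had 122, 122.5 and 109 CPM without treatment and 103, 95.6 and 97.8 CPM with maltonis. The call of POLR2E as lower (log2 fold change −0.26, SE 0.0676, adjusted p = 0.00795 by edgeR’s quasi-likelihood test) was lost on scaling by total counts (adjusted p = 0.1004) or the upper quartile, and without n.t. replicate 1 or 2 or maltonis replicate 2 or 3. POLR2K was not called (log2 fold change −0.07, SE 0.0704). For POLR2L, 22.5% of the exon bases lie opposite to CD151, which itself fell by 0.66 on the log2 scale, and its value has the same uncertainty as that of CD3EAP.

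**Figure D2:**
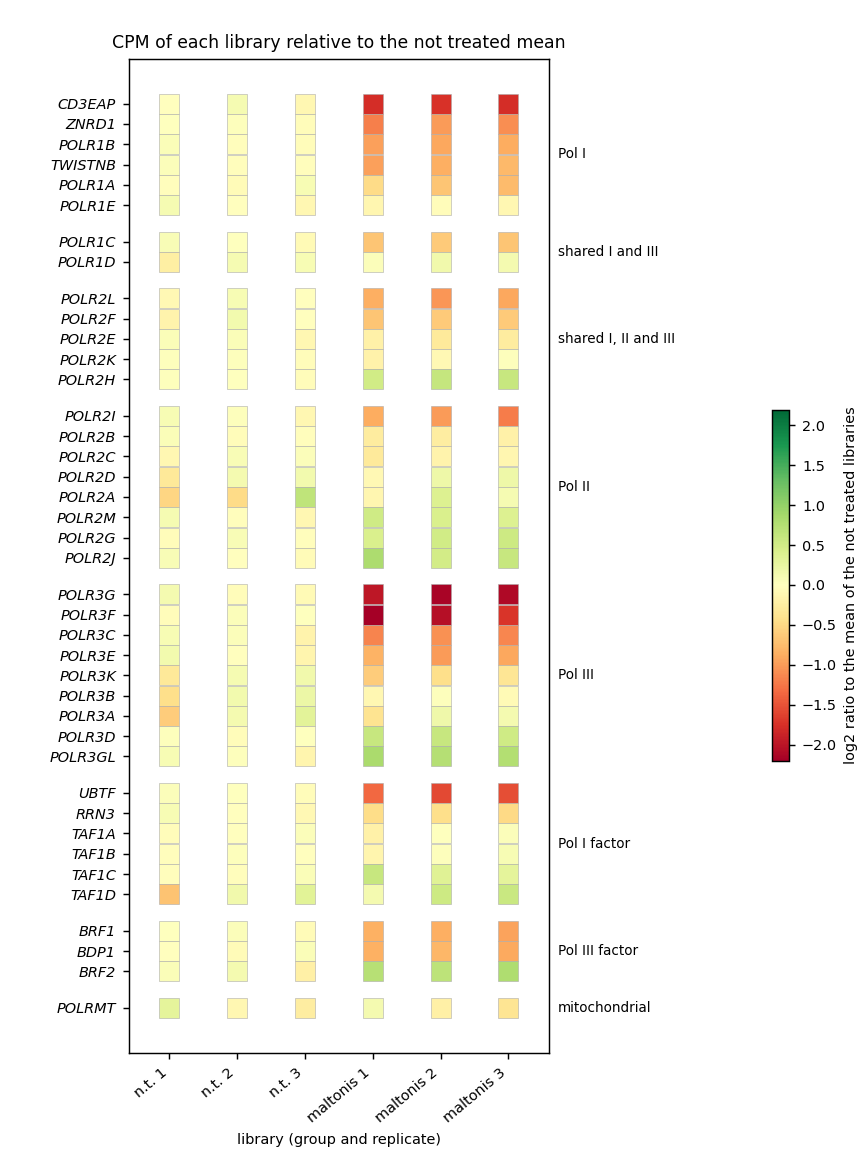
Log2 ratio of the CPM of each library to the mean of the 3 n.t. libraries, for 40 members grouped by enzyme; columns are libraries, and red squares lie under and green squares above the n.t. mean. Squares of the 3 maltonis libraries agree in color for the called members, while POLR2A, POLR3A and TAF1D vary among the n.t. libraries.

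Members found only with Pol II moved in both directions. POLR2A, its catalytic subunit with the C-terminal repeat domain, had 73.7, 76.5 and 169 CPM in n.t. and 97.8, 139.9 and 115 CPM in maltonis-treated cells. Here n.t. replicate 3 was 2.30 times the lowest n.t. library and the highest of all 6, and it decided the outcome: the log2 fold change was 0.14 (SE 0.302, adjusted p = 0.689 by edgeR’s quasi-likelihood test) with it and 0.64 (adjusted p = 0.00350) without it. POLR2B, the other catalytic subunit, was the most abundant member by CPM and went from 416, 388 and 393 CPM to 331, 335 and 346 CPM. That fall of 0.24 on the log2 scale (SE 0.0551) was called, but not on scaling by total counts (adjusted p = 0.0774 by the same test) or the upper quartile or without maltonis replicate 2.

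POLR2I, which encodes the subunit for transcript fidelity and cleavage, had the strongest fall within Pol II. Its n.t. libraries held 35.6, 34.1 and 30.97 CPM and its maltonis libraries 18.2, 16.7 and 14.6 CPM, a log2 fold change of −1.03 (SE 0.0997). Of its exon bases, 32.9% lie opposite to TBCB, a tubulin folding gene that rose by 0.36 on the log2 scale, so its value is uncertain where counting ignored the strand. POLR2G, a subunit of the stalk, rose from 98.3, 107 and 99.6 CPM to 135, 144 and 148 CPM (log2 fold change 0.49, SE 0.0623). POLR2D, its partner in the stalk, varied from 114 to 156 CPM in n.t. and from 133 to 162 CPM in maltonis-treated cells and was not called.

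POLR2J, an assembly subunit of Pol II, rose from 43.8, 41.3 and 39.8 CPM to 73.0, 58.6 and 63.1 CPM (log2 fold change 0.64, SE 0.0908), while its assembly partner POLR2C had a log2 fold change of −0.20 (SE 0.0723, adjusted p = 0.0339 by edgeR’s quasi-likelihood test) and was not called. POLR2C passed the threshold with the code as a term (adjusted p = 0.00213 by the same test). Near-identical copies of POLR2J exist, so its reads may be shared with POLR2J2, POLR2J3 and POLR2J4, which had means between 0.340 and 8.94 CPM. POLR2M, which encodes a protein that binds Pol II and keeps it inactive until released, rose from 20.6, 18.8 and 17.7 CPM to 27.2, 25.6 and 25.0 CPM, a log2 fold change of 0.45 (SE 0.0827). Of its exon bases, 21.1% overlap those of GCOM1 on the same strand, which had 0 counts in every library. How reads in shared exons were counted is not given in the sources used here, so the value of POLR2M is uncertain.

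Pol III held the members with the largest falls and the largest rise. The subunits encoded by POLR3C, POLR3F and either POLR3G or POLR3GL, form a subcomplex that recognises TFIIIB and opens the promoter. POLR3G had 22.7, 20.2 and 19.8 CPM in n.t. cells and 5.27, 4.71 and 4.86 CPM after maltonis. Its log2 fold change of −2.08 (SE 0.0993, adjusted p = 3.22e-07 by edgeR’s quasi-likelihood test) is a 4.23-fold fall. POLR3F went from 27.8, 29.2 and 28.5 CPM to 6.04, 6.89 and 8.56 CPM (log2 fold change −1.98, SE 0.120), and POLR3C from 59.1, 56.9 and 49.3 CPM to 24.6, 26.2 and 24.9 CPM (log2 fold change −1.12, SE 0.0848).

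POLR3GL, the paralog that takes the place of POLR3G in the subcomplex, moved the other way. Its level went from 21.7, 20.7 and 18.4 CPM to 36.3, 33.9 and 34.3 CPM, a log2 fold change of 0.78 (SE 0.0819, adjusted p = 3.17e-05 by edgeR’s quasi-likelihood test). POLR3G is known for high levels in stem cells and tumor cells, and POLR3GL is the form present in most differentiated cells. Because both genes are read in the same library, their ratio does not depend on scaling. The log2 ratio of POLR3G to POLR3GL counts, with 0.5 added to each, was 0.07, −0.04 and 0.10 in n.t. replicates 1, 2 and 3, and −2.78, −2.84 and −2.81 after maltonis. In n.t. cells the paralogs thus had near equal counts, with POLR3G at 49.4% to 51.8% of their sum. In maltonis-treated cells POLR3G made up 12.22% to 12.72% of the summed counts. These shares are not corrected for gene length. Per kilobase of summed exon length (RPKM), POLR3G had 5.21 in n.t. and 1.23 in maltonis-treated cells, against 11.3 and 19.4 for POLR3GL. The mean log2 ratio went from 0.04 ± 0.0711 to −2.81 ± 0.0329 (SD, n = 3), a difference of −2.86 or 7.25-fold (two-sided exact permutation test, p = 0.1, the smallest that 3 against 3 libraries allow). The difference was −2.84 within code A and −2.86 within code B.

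**Figure D3:**
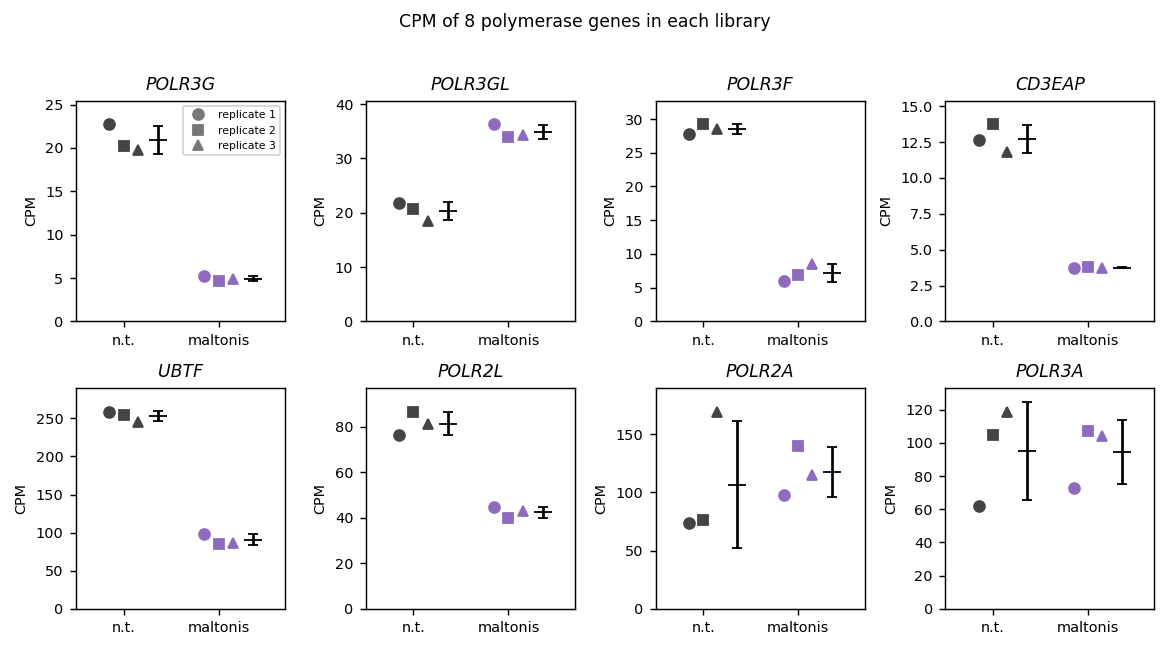
CPM of 8 members in each library, with n.t. libraries in gray and maltonis libraries in purple, a symbol for each replicate number, and the mean ± SD of 3 libraries beside them; each panel has its own axis from 0. POLR3G, POLR3F, CD3EAP, UBTF and POLR2L were lower and POLR3GL was higher in every maltonis library, while POLR2A and POLR3A overlapped.

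The catalytic subunits of Pol III were not called. POLR3A, the largest subunit, had 62.2, 105 and 119 CPM in n.t. and 72.7, 107 and 104 CPM in maltonis-treated cells. Replicate 1 was the lowest library of both groups, the log2 difference was 0.22 within code A and −0.08 within code B, and the log2 fold change was −0.01 (SE 0.231, adjusted p = 0.972 by edgeR’s quasi-likelihood test). The standard error leaves room for a change of some size in either direction. POLR3B, the other catalytic subunit, had a log2 fold change of −0.07 (SE 0.153), with 26.9, 40.5 and 42.3 CPM before and 33.8, 37.0 and 34.5 CPM after treatment. The log2 difference of POLR3B was 0.33 within code A and −0.21 within code B. Without n.t. replicate 1 the log2 fold change of POLR3B was −0.25 (adjusted p = 0.0127 by edgeR’s quasi-likelihood test), and with scaling by total counts it was 0.05.

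Outside the core, POLR3E and POLR3D, whose proteins form a dimer that acts in initiation and termination, parted. POLR3E fell from 115, 103 and 93.9 CPM to 58.6, 51.9 and 55.3 CPM (log2 fold change −0.91, SE 0.0871), and POLR3D rose from 44.4, 42.2 and 43.5 CPM to 65.8, 65.2 and 62.7 CPM (log2 fold change 0.57, SE 0.0604). POLR3K, which serves RNA cleavage and termination, had 19.1, 25.8 and 26.7 CPM without and 15.6, 17.7 and 18.7 CPM with maltonis. The groups of POLR3K did not overlap, yet it missed the threshold (log2 fold change −0.47, SE 0.133, adjusted p = 0.0115 by edgeR’s quasi-likelihood test). With the code as a term it was called lower (adjusted p = 0.000168 by the same test).

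BDP1, BRF1 and BRF2 passed the threshold. BDP1 fell from 184, 177 and 191 CPM to 102, 105 and 98.6 CPM (log2 fold change −0.85, SE 0.0578), and BRF1, which serves transfer RNA and 5S genes, from 53.0, 54.2 and 50.5 CPM to 28.97, 28.8 and 27.1 CPM (log2 fold change −0.89, SE 0.0667). BRF2, which replaces BRF1 at genes of the U6 type whose promoter lies upstream, rose from 25.5, 26.7 and 21.2 CPM to 40.4, 39.1 and 42.4 CPM, a log2 fold change of 0.73 (SE 0.0959, adjusted p = 0.000128 by edgeR’s quasi-likelihood test). Of the exon bases of BRF2, 59% lie opposite to GPR124, which fell by 3.80 on the log2 scale, so its value is uncertain where counting ignored the strand.

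POLRMT, the single-subunit enzyme of mitochondria, was not called. It stood at 46.7, 34.8 and 31.9 CPM in n.t. and at 41.2, 32.5 and 29.3 CPM in maltonis-treated cells. Replicate 1 was again the extreme library of both groups, here the highest, and the log2 fold change was −0.14 (SE 0.165).

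Promoter sequences were read from the RefSeq table of 250 bases before to 50 bases after each start (build GRCh38.p14, not the hg19 build of the counts), in which 32 of the 41 members had an entry. POLR1E, POLR2K, POLR2G, POLR2I, POLR2J, POLR3G, POLR3D and BRF2 were among those without one. The E-box CACGTG, the motif bound by MYC and related factors, reads the same on both strands, so 1 search covers both. It was present in 4 of the 32 promoters (12.5%) and in 8.31% of the promoters of all symbols in the count files. The 4 matches are shown because MYC is a known activator of this machinery, each with the motif in capitals:
CD3EAP (chr19:45406620-45406649, plus strand): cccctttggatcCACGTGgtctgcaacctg
POLR3A (chr10:78029533-78029562, minus strand): agaggaagcggaCACGTGggacactctacg
POLR3C (chr1:145823992-145824021, plus strand): gcccgcgtcggtCACGTGagttggccaggc
POLR3E (chr16:22297396-22297425, plus strand): cccgctccccccCACGTGtccgccggagtt
The motif begins at −12, −35, −196 and −1 from the RefSeq start in CD3EAP, POLR3A, POLR3C and POLR3E. In GENCODE 29 these genes start 435, 30, 112 and 34 bases upstream of the RefSeq start. Of these, CD3EAP, POLR3C and POLR3E fell, with log2 fold changes of −1.76, −1.12 and −0.91, and POLR3A was not called at −0.01. Of all 41 members, 48.8% were lower, with or without the motif. Whether the motif bears on the falls was not tested. UBTF and POLR3F, with log2 fold changes of −1.48 and −1.98, had no match in these windows.

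Levels were compared between genes per length, as RPKM, which is CPM divided by the summed exon length in kilobases. In n.t. cells, POLR2L (71.3 RPKM), POLR2B (67.6) and POLR2G (52.8) were the highest, and POLR2M (2.89), CD3EAP (3.48) and BRF1 (3.99) the lowest. Pol II subunits other than POLR2M lay between 12.8 and 67.6 RPKM. Pol III subunits lay between 5.21 RPKM for POLR3G and 19.7 RPKM for POLR3C. POLR3G shares its place in the enzyme with POLR3GL, and POLR3B (7.52 RPKM) was the next lowest Pol III subunit. Within Pol II, subunits that are present once per complex thus differed several-fold in RNA level. After maltonis, POLR3G (1.23 RPKM) and CD3EAP (1.023 RPKM) were the lowest members, and POLR2G (74.2 RPKM) took the place of POLR2L (37.1 RPKM) at the top. Exons of POLR2L, POLR2M and CD3EAP partly overlap those of other genes, so their places in this ranking are uncertain. RPKM also depends on the exon length used. With the longest transcript in place of all exons, POLR2B (97.1 RPKM) stood above POLR2L (91.3 RPKM) in n.t. cells, and POLR2G went from 65.2 RPKM to 91.6 RPKM after maltonis. The change of length moved POLR2F from 10.8 to 36.04 RPKM and BRF1 from 3.99 to 13.8 RPKM in n.t. cells.

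**Figure D4:**
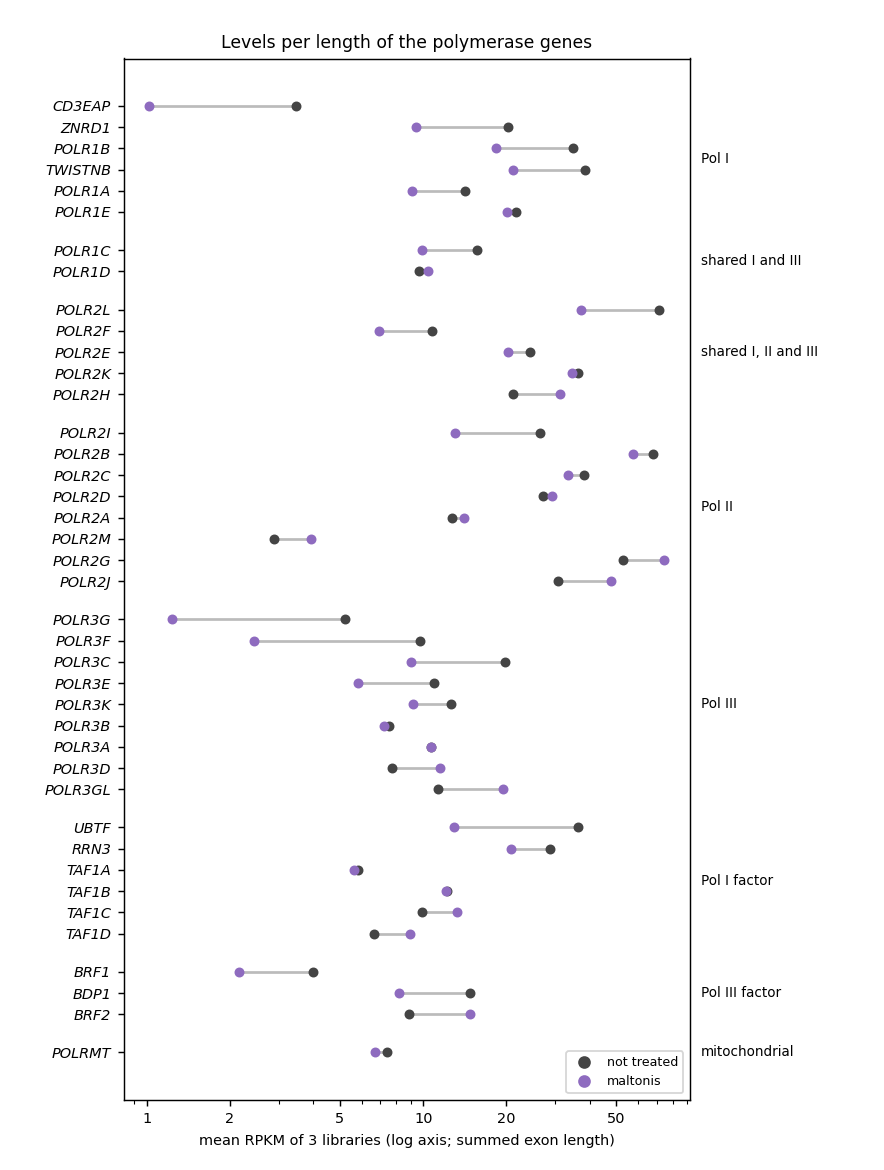
Mean RPKM of 3 libraries for 40 members in n.t. (gray) and maltonis-treated (purple) cells on a log axis, grouped by enzyme, with a line between the groups. POLR2G and POLR2B lead after treatment, and POLR3G and CD3EAP lie at 1.23 and 1.023 RPKM.

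Other genes of the transcription machinery, 115 symbols in 6 hand-written lists of which 114 were tested, had 49 lower and 24 higher genes. Partners of Pol I, nucleolar proteins that act on ribosomal DNA or the precursor RNA, had 14 of 20 lower and 1 higher (TTF1, the Pol I termination factor, at a log2 fold change of 0.39), with a median of −0.68. BAZ2A, of the nucleolar remodeling complex that silences ribosomal genes, had the largest fall in this list, −1.06 (SE 0.162). The size of that fall varied, with a log2 difference of −0.55 within code A and −1.29 within code B. BAZ2A had 71.6, 80.7 and 108.5 CPM in n.t. replicates 1, 2 and 3. Partners of Pol III had 11 of 17 lower and 2 higher and a median of −0.39. SNAPC2, of the complex that binds promoters of the U6 type, fell from 25.0 ± 2.45 to 5.43 ± 0.937 CPM (SD, n = 3), and ZNF143, which activates such promoters, rose from 34.3 ± 2.45 to 95.6 ± 2.06 CPM (SD, n = 3).

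General factors of Pol II had 9 of 31 lower and 10 higher, with a median log2 fold change of −0.01. MNAT1, which assembles the kinase of TFIIH, fell from 41.2 ± 1.81 to 3.79 ± 0.578 CPM (SD, n = 3; log2 fold change −3.46, SE 0.110), and TAF12 rose with a log2 fold change of 1.45 (SE 0.0726). Elongation factors of Pol II had 2 of 21 lower, with TCEA2 at −2.11, and 5 higher, with AFF4 at 0.54. Genes of mitochondrial transcription had 7 of 10 lower and 2 higher, from SLIRP at −1.18 to MTERF at 0.87. Factors that assemble the polymerases had 6 of 15 lower, with RUVBL1 at −1.27, and 4 higher, with PDRG1 at 0.78. The background of 32.1% lower and 31.9% higher genes holds for these lists as well.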

How the data were processed

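Per the labels, total RNA of 6 NB4 libraries was prepared with a stranded, rRNA-depleting kit, and the submitters’ processing notes name TopHat, Bowtie2, HTSeq and hg19, without versions. The authors deposited 1 file of raw counts per library, whole reads per gene symbol without normalization. The annotation and strand setting are not given in the sources used here. Samples were grouped by title. Counts were tested in R 4.3.3 with edgeR 4.0.16 (TMM, filterByExpr, quasi-likelihood test of 3 against 3 libraries without covariates, Benjamini-Hochberg adjustment over all 13209 genes), which gave all adjusted p-values. SE is the fold change over the root of the F statistic. RPKM used exon lengths of GENCODE 29. Replicates differed by more than sampling noise (chi-square per degree of freedom 4.16 to 33.1). Alternatives were other scalings, DESeq2 1.42.0, no filter, a replicate block, the code as a term, fewer libraries and other thresholds. The scripts were tested on simulated data with a fixed spread between libraries, which is simpler than these data. There the test called 93.5% of genes changed by 1 on the log2 scale and 39.4% of those changed by 0.5. A member that was not called may thus have changed by a small amount. Members, lists and tests were chosen with earlier results of these data known, and the overlapping genes, paralogs and RNAs made by Pol I or III after their values were seen. Values per library were given for the 3 largest called rises and falls of each class, all of small classes, the largest subunits, POLR3G, POLR3GL and POLRMT, and from other lists the largest called rise and fall were named. POLR3E, POLR3K and POLR3B were added where a call or a role asked for it. Values of 1 member are not reported here, though it is part of the counts.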

Additional observations from a re-analysis of the deposited data

How the results depend on the processing

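Of the 28 called members, 25 kept their call in all 14 alternatives of scaling, test, filter, covariates and libraries, while POLR2E, POLR2B and TAF1C lost it in some, and no called member changed sign. With a replicate block, 22 members were lower and 9 higher, against 20 and 8, and the code as a term gave 22 and 9. Of all 13209 genes tested, 8452 were called in the main test, 9222 with the replicate block and 9474 with the code as a term. Same-numbered libraries deviated together with correlations of 0.301, 0.0852 and 0.161 for numbers 1, 2 and 3. Not every library correlated best with its own number, so the numbers were not taken as pairs. Between numbers 2 and 3, both of code B, the correlations were 0.123 and 0.139. Between code A and code B they were −0.232 to −0.162, and the main test had no term for the code. The POLR3G to POLR3GL difference stayed at −2.90 to −2.83 without single libraries and was −2.86 with the replicate block. Scaling by total counts moved the median of all genes from 0.01 to 0.13 and that of the members to −0.12, and the upper quartile moved it to −0.16; relative to all genes it was −0.26 in each. It was −0.21 in code B only and −0.30 to −0.23 without single libraries. Lower Pol II genes were 1 with total counts, 1 with the upper quartile and 1 to 3 without single libraries (1 without maltonis replicate 2). Higher Pol I factors were 2 with the replicate block, 2 with the code as a term, 2 in code B only and 0 to 1 without single libraries (0 without n.t. replicate 2). The fold part of the study’s criterion, a fold change beyond 2.50, left 4 of the 41 members lower (POLR3G, POLR3F, CD3EAP and UBTF) and 0 higher. Of all genes tested, it left 10.4% lower and 9.96% higher. The lower subunits were 1 of Pol I, 0 shared by Pol I and III, 0 shared by all, 0 of Pol II and 2 of Pol III. Among the factors, 1 Pol I factor and 0 Pol III factors were lower, and 0 were higher in each class. Of the other genes of the transcription machinery, 4 were lower and 2 higher. Medians near 0 changed sign: for Pol II (0.12) −0.0561 to 0.2816 without single libraries (below 0 without n.t. replicate 1 or maltonis replicate 2), and the median log2 fold change, Pol I factor genes only (−0.02), was 0.0952 with total counts, 0.0638 with the upper quartile, 0.0226 in code B only and −0.0958 to 0.0179 without single libraries (above 0 without maltonis replicate 1). Why these values moved was not tested, apart from the fewer libraries or genes each setting has. The lowest count of a member in any library was 72, for CD3EAP.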

Other observations

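RMRP and RPPH1, RNAs made by Pol III, were counted at high levels in these libraries. RMRP, the RNA of the endonuclease that processes ribosomal RNA, took 0.698%, 0.682% and 0.683% of the counts of n.t. replicates 1, 2 and 3 and 1.14%, 1.28% and 1.29% after maltonis. Its mean rose from 7168 ± 57.3 to 11860 ± 849 CPM (SD, n = 3), and the log2 fold change was 0.73 (SE 0.0693, adjusted p = 1.76e-05 by edgeR’s quasi-likelihood test). RPPH1, the RNA of RNase P, which trims transfer RNA precursors, took 0.795%, 0.859% and 0.815% of the counts without treatment and 0.988%, 1.39% and 1.26% with it. The log2 fold change of RPPH1 (0.44, SE 0.120, adjusted p = 0.00902 by the same test) was smaller, its log2 difference was 0.20 within code A and 0.54 within code B, and the call was lost without any single n.t. library and without maltonis replicate 2 or 3 (adjusted p from 0.0183 to 0.0567 in edgeR’s quasi-likelihood test). Both genes have promoters of the U6 type. The groups of RMRP and of RPPH1 did not overlap, as was the case for 76.6% of all genes tested. Of the 10 subunits found only in Pol III, 5 were lower and 2 higher, against 32.1% and 31.9% of all genes tested.

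RNU6ATAC, another such transcript, had 14, 25 and 9 counts in n.t. and 13, 40 and 42 counts in maltonis-treated cells and was not called (log2 fold change 1.07, SE 0.394, adjusted p = 0.0345 by edgeR’s quasi-likelihood test). The vault RNA VTRNA1-3 had 5, 6 and 12 counts without and 2, 2 and 3 counts with maltonis, and did not pass the filter. RN45S, the ribosomal RNA precursor made by Pol I, and RNY4, RNY5 and BCYRN1 were at 0 counts in every library. For counting error alone, that allows up to 3 counts each, or 0.0785 to 0.162 CPM. Whether reads of these RNAs could be counted at all was not tested, so this sets no bound on their level in the cells. The libraries were depleted of ribosomal RNA, and the output of either enzyme was not measured.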
